A study of Mus musculus with 2239 samples.

Results

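The genes of MHC class I antigen presentation were followed through single regulatory T cells (Tregs) of the mouse. The 8 genes were chosen by name: B2m, H2-K1, H2-D1, H2-T23, H2-Q7, Tap1, Tap2 and Tapbp. All 8 were found among the 23725 gene rows of the deposited table. Their levels and co-variation were described in cells with at least 500 unique molecular identifiers (UMIs, 1 per captured messenger RNA molecule), and then set against interferon-induced transcripts (Ifit1, Ifit3 and Isg15) and against Cd79a, a B cell receptor subunit.

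The series holds 2239 cells of 1 inDrops library, a droplet method that reads the poly(A) end of each transcript. Per the labels, the cells came from male B6 mice aged 7 months that carried a Foxp3 reporter, and were sorted as DAPI- TCRb+ CD4+ GFP+. All carry the tissue label spleen, while a sample type label names spleen and colon together; no label tells the cells of the 2 tissues apart. No label gives the number of mice or what drives the reporter beyond its name. No treatment is named, though all cell titles carry Ctrl and rep2, whose meaning was not taken up here. There is 1 library and no replicate, so no test was made, and every interval below covers counting error only.

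Of the 2239 cells, 91.78% held at least 500 UMIs, with a mean of 1049.3 and a highest of 4329, and together 2156277 UMIs. Foxp3, the transcription factor that defines Tregs, stood at 371.5 CPM (UMIs of the gene per 1000000 UMIs of the same cells) with a UMI in 28.95% of cells. The pan-T marker list (10 genes, among them Cd3d and Lck) held 3942 CPM, with a UMI in 93.19% of cells. Cells of 2 other kinds were also present. Clustering gave a B cell-like cluster of 88 cells and a myeloid-like cluster of 42 cells, leaving 1925 cells outside both. The clustering left out the antigen presentation lists, except the class II genes that are also B cell markers. Those were Cd74, H2-Aa, H2-Ab1 and H2-Eb1.

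MHC class I molecules show short peptides from inside the cell to CD8 T cells and natural killer cells. The peptides are cut by the proteasome, pumped into the endoplasmic reticulum by the transporter made of TAP1 and TAP2, and loaded, with tapasin (Tapbp) bridging the transporter and the empty molecule, onto a heavy chain paired with beta-2 microglobulin (B2m). H2-K1 and H2-D1 encode classical heavy chains, whereas H2-T23 (Qa-1, a ligand of the NKG2A receptor) and H2-Q7 (Qa-2) encode nonclassical ones; interferons and NF-kB are known inducers of the pathway.

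B2m lies on chromosome 2 at positions 122147687 to 122153082 of GRCm38.p6, the build also called mm10. The other members lie on chromosome 17: H2-K1 at 33996012 to 34000619, H2-D1 at 35263094 to 35267497, H2-Q7 at 35439140 to 35443773, H2-T23 at 36029977 to 36032701, Tap1 at 34187556 to 34197225, Tap2 at 34204479 to 34216321 and Tapbp at 33919478 to 33929290.

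The upstream sequences are shown because the members are set against interferon-induced transcripts further on. RefSeq promoter windows (250 bases before to 50 after each start) matched 7 members, and Tap2 had no entry. Windows were searched on both strands for the interferon-stimulated response element core GAAANNGAA, the NF-kB site core GGGATTCCC and the gamma-activated site TTCNNNGAA, where N is any base. Below are the 250 bases before the start, 5′ to 3′ on the gene's own strand, with any of these motifs in capitals.
B2m (chr2:122147437-122147686, plus strand): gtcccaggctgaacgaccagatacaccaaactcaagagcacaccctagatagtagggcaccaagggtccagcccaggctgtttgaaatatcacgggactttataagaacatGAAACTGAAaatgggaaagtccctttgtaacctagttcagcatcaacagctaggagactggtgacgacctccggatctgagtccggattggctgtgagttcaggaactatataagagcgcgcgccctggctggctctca
H2-T23 (chr17:36032702-36032951, minus strand): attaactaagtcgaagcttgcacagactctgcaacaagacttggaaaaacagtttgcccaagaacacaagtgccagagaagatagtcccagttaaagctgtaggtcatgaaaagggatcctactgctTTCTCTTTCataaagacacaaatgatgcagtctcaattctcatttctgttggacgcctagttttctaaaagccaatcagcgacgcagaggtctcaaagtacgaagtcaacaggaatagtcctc
H2-K1 (chr17:34000348-34000597, minus strand): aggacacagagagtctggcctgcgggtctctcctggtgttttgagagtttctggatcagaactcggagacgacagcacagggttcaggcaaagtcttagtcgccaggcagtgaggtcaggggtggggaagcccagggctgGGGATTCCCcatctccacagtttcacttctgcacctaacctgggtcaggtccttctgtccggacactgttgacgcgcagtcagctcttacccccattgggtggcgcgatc
H2-D1 (chr17:35262844-35263093, plus strand): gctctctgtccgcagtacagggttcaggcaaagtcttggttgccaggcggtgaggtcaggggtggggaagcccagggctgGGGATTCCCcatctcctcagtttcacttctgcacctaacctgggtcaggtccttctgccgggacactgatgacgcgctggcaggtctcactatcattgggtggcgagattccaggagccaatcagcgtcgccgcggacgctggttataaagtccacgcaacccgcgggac
H2-Q7 (chr17:35438905-35439154, plus strand): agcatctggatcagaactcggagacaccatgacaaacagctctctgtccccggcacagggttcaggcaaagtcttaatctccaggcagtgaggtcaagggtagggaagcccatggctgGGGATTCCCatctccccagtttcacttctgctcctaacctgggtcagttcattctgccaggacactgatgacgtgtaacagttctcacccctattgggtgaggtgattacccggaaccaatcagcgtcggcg

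The interferon element core lay upstream of B2m (chr2:122147548-122147556) and, on the opposite strand, of H2-T23 (chr17:36032816-36032824). It occurs in 2812 of 32851 mouse promoter windows of the same length (8.56%). The NF-kB core lay upstream of H2-D1 (chr17:35262924-35262932), of H2-Q7 (chr17:35439023-35439031) and of the first of the 2 starts listed for H2-K1 (chr17:34000449-34000457). The printed H2-K1 window, with its match, lies wholly inside the H2-K1 gene span given above. The printed H2-Q7 window ends past the gene start given above, and its match lies before that start. The NF-kB core occurs in 0.353% of all windows, but H2-Q7 held no match in the first search with longer letters. The printed windows of H2-K1, H2-D1 and H2-Q7 also share long runs of letters, so their matches are not independent. The gamma-activated site was in none of the 7 windows (8.3% of all windows), and the Tap1 and Tapbp windows held none of the 3 motifs. The Y box CCAAT, part of the enhanceosome that NLRC5 joins, was in all 7 windows (37.4% of all), and TGACG, the core of the cyclic AMP response element, was in 5 (20.8% of all). These are matches of letters and not measured binding. Only the exact cores were searched, so a window without a match can hold another form of the same element. The H2-K1, H2-D1 and H2-Q7 windows share agtttcacttct, whose opposite strand has GAA before GAAA, an order that GAAANNGAA cannot match. The B2m window holds gggaaagtccc, which GGGATTCCC cannot match.

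The 8 genes together gave 24763 UMIs, or 11484.1 CPM (95% Poisson interval 11341.5 to 11628.1), which is 1.148% of all UMIs. The median cell held 11 class I UMIs and the highest 46, and 1 cell held none. Scaled to 1000 UMIs, the cells ran from 0 through a median of 11.2 to 38.9, with quartiles of 8.49 and 14.5. When each cell was thinned to 500 UMIs, the variance of the class I sum was 1.433 times its mean, where sampling of equal cells would give a value near 1.

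B2m, the shared light chain, stood highest at 4125 CPM (4040 to 4212), and 97.08% of cells held a B2m UMI. H2-K1 followed at 3821 CPM (3739 to 3905) in 95.72% of cells. H2-D1, the other classical heavy chain, stood lower at 1645.9 CPM (1592 to 1701) in 78.83% of cells. The intervals of these genes did not overlap.

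H2-Q7 stood at 806.5 CPM (769 to 845.3), with a UMI in 53.04% of cells and at most 7 in a cell. H2-T23 stood at 292.2 CPM (269.8 to 315.9) in 26.23% of cells. The nonclassical heavy chains were thus measured at lower levels than the classical ones in this library.

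Among the loading genes, Tapbp stood at 445.2 CPM (417.5 to 474.3) in 35.09% of cells. The transporter subunits were the lowest members, with Tap1 at 181.3 CPM (163.8 to 200.2) and Tap2 at 166.5 CPM (149.7 to 184.6). Their intervals overlapped, and there were 1.09 Tap1 UMIs per Tap2 UMI (0.941 to 1.26). Tap1 and Tap2 encode the chains of 1 transporter.

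Per kilobase of the longest annotated transcript, B2m stood at 4797, H2-K1 at 2360, H2-D1 at 783, H2-Q7 at 529.5, H2-T23 at 198.5, Tapbp at 153.6, Tap1 at 61.41 and Tap2 at 48.37 CPM per kb. The order changed only between H2-T23 and Tapbp. Since poly(A)-end counting counts molecules and not length, the unscaled order is given as well. Thinned to 500 UMIs, the share of cells with a UMI was 86.33% for B2m, 83.45% for H2-K1, 57.32% for H2-D1, 32.55% for H2-Q7, 19.95% for Tapbp, 13.97% for H2-T23, 9.1% for Tap1 and 8.321% for Tap2.

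The cells without a UMI were close to the number that sampling alone would leave. For H2-T23, 73.77% of cells had none, against 74.09% expected if every cell held the same share. For Tap2 the values were 84.77% against 84.16%, for H2-D1 21.17% against 20.81%, and for H2-Q7 46.96% against 44.85%. Absence of a UMI in a cell therefore does not mark a negative cell at this depth.

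**Figure D1:**
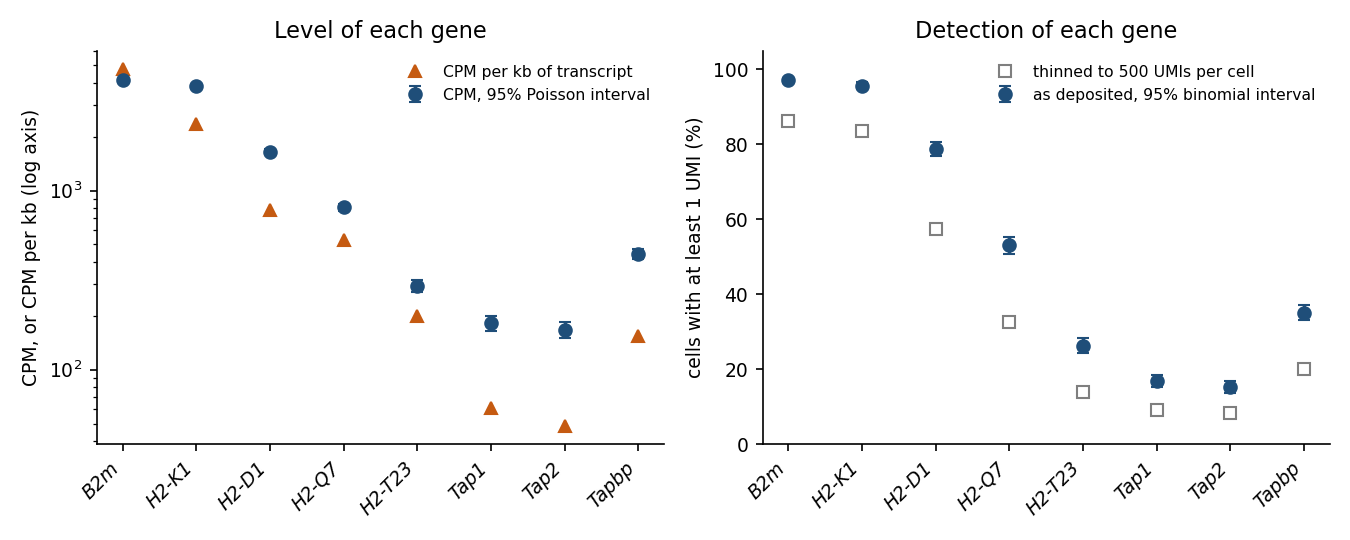
Level and detection of the 8 class I genes in the cells with at least 500 UMIs. Left, pooled CPM with 95% Poisson intervals (circles) and CPM per kb of transcript (triangles) on a log axis; right, the percent of cells with a UMI as deposited, with 95% binomial intervals (circles), and thinned to 500 UMIs (squares). B2m at 4125 CPM and H2-K1 at 3821 CPM stand above the other 6 genes, and Tap1 and Tap2 are lowest.

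Some heavy chain genes share sequence near their poly(A) end with other genes, which bears on which row a read is counted in. Of the stretches of 50 bases in the last 400 bases of the transcript, H2-T23 shared 36.2% with other genes, 78 of them with Rab33b, and H2-D1 shared 12.3%. H2-K1 and H2-Q7 each shared 0.57%, and B2m, Tap1, Tap2 and Tapbp shared none. The neighbouring rows H2-Q6 and H2-T22 held 0 UMIs (upper limit 1.711 CPM), although H2-T22 shares 63.5% of its stretches with H2-T10, which stood at 164.2 CPM. By this measure, H2-T23 is the member whose count is least certain. H2-Q8 and H2-Q9 had no coding transcript in the annotation used, so sequence that H2-Q7 might share with them may be missed.

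Class I level moved with depth. With the cells split into 3 equal groups by total UMIs, the deepest group held 10509.7 CPM and the shallowest 12612.8 CPM, a ratio of 0.8333 (0.8074 to 0.86), and all 8 members were below 1. None passed 1.5-fold (over all genes with at least 50 UMIs, 4.14% were higher and 9.42% lower by 1.5-fold). Ribosomal protein genes moved the other way, with a ratio of 1.133 (1.126 to 1.139). Across cells, the Pearson correlation of the class I residual sum was -0.2017 with total UMIs and -0.2801 with the ribosomal share (all kept cells, of 1 library, with depth in both measures). The part of depth and ribosomal share in the results below was not tested beyond the scalings given with them.

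The relation to interferon-induced transcripts was asked next. Ifit1, Ifit3 and Isg15, which are strongly induced by type I interferon, gave 0 summed UMIs in 89.83% of cells, 1 in 8.175% and 2 or more in 1.995% (41 cells). The highest cell held 16. The class I sum was 11353.1 CPM (11202.9 to 11504.8) at 0, 12225.4 CPM (11734.7 to 12731.4) at 1 and 13934.4 CPM (12863.2 to 15071.0) at 2 or more. Per cell, the medians were 11.1, 11.7 and 13.5 class I UMIs per 1000. The cells of the 3 groups overlapped widely, with ranges of 0 to 38.9, 2.75 to 29.7 and 5.26 to 35.5.

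With at least 1 interferon UMI against 0, the class I sum stood at a ratio of 1.105 (1.063 to 1.149). All 8 members lay above 1, and 0 of 8 reached 1.5-fold, where 8.0% of 5315 measured genes were higher and 11.9% lower by that fold. The median log2 ratio of the members was 0.22 against 0.0005266 over all these genes. The largest were Tapbp at 1.32 (1.091 to 1.586), Tap2 at 1.317 (0.9563 to 1.78) and H2-T23 at 1.286 (1.012 to 1.617). H2-D1 was the smallest at 1.022 (0.9182 to 1.135), below B2m at 1.102 (1.033 to 1.175) and H2-K1 at 1.087 (1.015 to 1.162).

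In the 41 cells with 2 or more interferon UMIs, the sum stood at 1.227 (1.132 to 1.329) against 0. Tapbp went from 430.1 CPM at 0 through 517.9 at 1 to 780.3 at 2 or more, and 23 of the 41 cells held a Tapbp UMI. Its ratio of 1.814 (1.255 to 2.544) passed 1.5-fold, as did that of Tap2 at 1.663 (0.8498 to 2.946), whose interval spans 1. Thus 2 of 8 members were higher and 0 lower by 1.5-fold, beside 10.7% of all measured genes higher and 14.5% lower.

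The remaining members stayed within 1.5-fold at 2 or more interferon UMIs. H2-K1 went from 3785 to 3923 to 4927 CPM and ended at a ratio of 1.302 (1.133 to 1.488). B2m went from 4080 to 4389 to 4950 CPM, a ratio of 1.213 (1.057 to 1.386). Tap1, H2-T23 and H2-Q7 had intervals that span 1. H2-D1 stood at 1710.6 CPM at 1 UMI and 1538.4 CPM at 2 or more, the latter a ratio of 0.9369 (0.7271 to 1.189) to cells with 0.

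The balance of the classical heavy chains was lower in these cells. There were 0.434 H2-D1 UMIs per H2-K1 UMI (0.416 to 0.452) in cells with no interferon UMI and 0.312 (0.235 to 0.411) in the 41 cells with 2 or more, with intervals that did not meet. In cells with 1 it was 0.436 (0.382 to 0.497). Both printed windows hold the letters of the NF-kB core shown above, and whether that site bears on the balance was not tested.

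**Figure D2:**
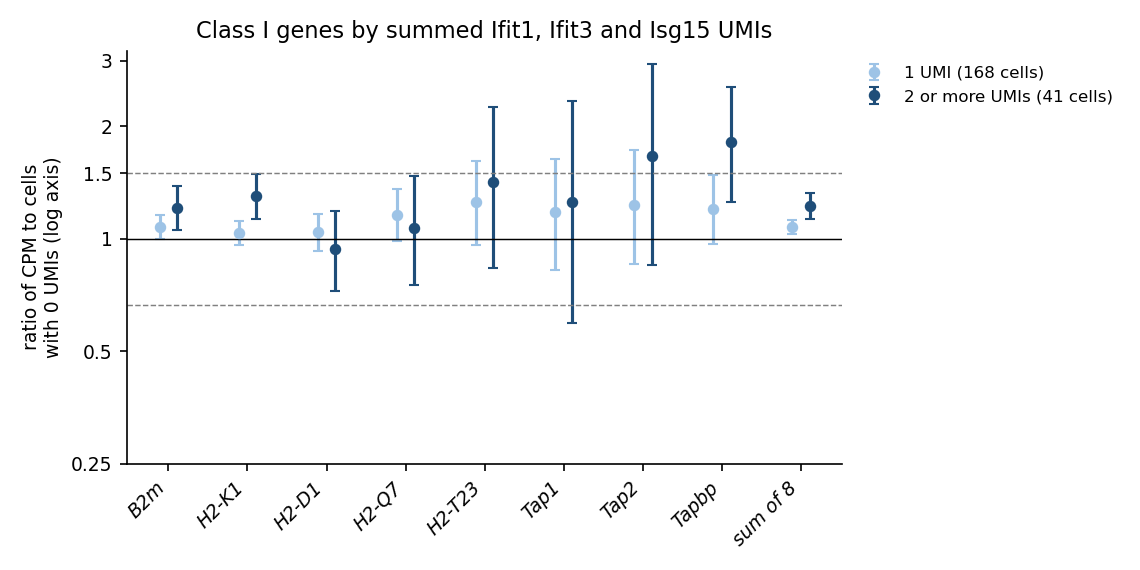
Ratio of CPM of each class I gene and of their sum to cells with 0 summed Ifit1, Ifit3 and Isg15 UMIs, on a log axis, for cells with 1 UMI (light) and 41 cells with 2 or more (dark). Bars are exact 95% counting intervals, and dashed lines mark 1.5-fold in each direction. Tapbp at 1.814 and Tap2 at 1.663 lie above the upper line at 2 or more UMIs, and H2-D1 at 0.9369 lies below 1.

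Other genes of the pathway were given beside the members. Of 25 measured interferon-response genes other than the 3 that set the groups, 19 were higher by 1.5-fold with at least 1 UMI and 0 lower, with a median log2 ratio of 0.93. Usp18, an inhibitor of interferon receptor signalling, stood at 4.623 (2.711 to 7.721), and Irf7, a transcription factor of the response, at 2.946 (1.698 to 4.928). At 2 or more UMIs all 14 measured interferon genes were higher by 1.5-fold, with Bst2 (tetherin) at 6.917 (4.75 to 9.821) and Parp14 at 5.969 (3.901 to 8.83). The class I members, at a median of 0.35 there, stood nearer to 0 on the log2 scale than this list, at 1.4.

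Of the regulators of class I genes, Irf1, a factor that binds interferon elements, stood at 2.708 (1.524 to 4.483) with 2 or more UMIs. Nlrc5, the class I transactivator, stood at 0.7688 (0.387 to 1.39) with at least 1 UMI. In all, 1 of 8 measured regulators was higher and 1 (Rela) lower by 1.5-fold with at least 1 UMI. At that cut 2 of the 8 lay above 1, and their median log2 ratio was -0.1587. With 2 or more UMIs only 3 regulators were measured, of which 2 were higher and 1 lower by 1.5-fold.

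Among other class I genes, H2-T10 stood at 1.594 (1.182 to 2.119) and 2.603 (1.522 to 4.187) at the 2 cuts, and 63.5% of the stretches near its end are shared with H2-T22. H2-M3 stood at 0.6102 (0.2175 to 1.388), so 1 of 5 was higher and 1 lower with at least 1 UMI. Of 6 immunoproteasome genes, which shape the peptides made, 0 passed 1.5-fold, and Psmb9 stood highest at 1.467 (0.8869 to 2.323). Of 7 loading and folding genes 0 passed it, with the chaperone Hspa5 highest at 1.426 (1.124 to 1.792). Of 8 housekeeping genes 0 passed it, and their median log2 ratio was -0.00972.

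Markers of other cells moved with these groups. B cell markers held 1364.9, 1313.0 and 512.8 CPM at 0, 1 and 2 or more interferon UMIs, from 5 of the 41 cells at the last step, where 6 of the 11 markers were seen and Ms4a1, Ebf1, Pax5 and Fcmr were among those at 0. Of the 4 measured class II genes, which B cells express, 3 were lower by 1.5-fold there, with H2-Aa at 0.1878 (0.03863 to 0.5511). Myeloid markers held 904, 1004.4 and 1203.9 CPM, with 7 of 10 seen at the last step and Csf1r, Itgam and Cd68 at 0. Activated Treg markers held 595.8, 763.8 and 1070 CPM, with 6 of 9 seen at the last step and Itgae, Tigit and Cxcr3 at 0. Comparing cells only within their own cluster (Mantel-Haenszel ratio, chosen after seeing the data) gave 1.09 for the sum with at least 1 UMI. Leaving out the B cell-like and myeloid-like clusters gave 1.098 (1.055 to 1.142).

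The relation to Cd79a separated a different kind of cell. Cd79a encodes part of the B cell receptor and should be absent from T cells. It gave a UMI in 78 cells (3.796%), 32 with 1 and 46 with 2 or more. Of these 78 cells 72 lay in the B cell-like cluster, and 6 lay outside it. The 78 cells had a median of 896 UMIs against 976 in the rest, and held B cell markers other than Cd79a at 22954.1 CPM against 391.7, pan-T markers at 708.7 against 4071 and Foxp3 at 60.06 CPM. All 10 B cell markers other than Cd79a, which sets the groups, were seen among them, at a median of 22 UMIs per cell. Myeloid markers stood at 1117.1 CPM with Cd79a, in 57.69% of cells, against 911.2 CPM in 31.77% of cells without; 5 of the 10 were seen with Cd79a, and Lyz2, Itgam, Cd68, S100a8 and S100a9 were at 0. The part of these markers in the values below was not tested.

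The class I sum was 8420 CPM (7808 to 9067) in cells with a Cd79a UMI and 11607.2 CPM in cells with none, a ratio of 0.7254 (0.672 to 0.782). Per cell the median was 8.09 class I UMIs per 1000 (1.27 to 18.8) against 11.3 (0 to 38.9). The ranges overlapped, and the upper quartile with Cd79a, 10.8, lay below the median without it. The interval of the sum lay wholly below 1.

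H2-Q7 differed most, at 324.3 CPM with Cd79a against 825.8 without, a ratio of 0.3927 (0.258 to 0.5734). H2-K1 stood at 2366 against 3880 CPM, a ratio of 0.6099 (0.5268 to 0.7025). Tap1 at 0.6536 (0.3109 to 1.215) and Tap2 at 0.6403 (0.2903 to 1.23) rested on 10 and 9 UMIs, and their intervals span 1. These 4 of 8 members were lower by 1.5-fold and 0 higher, beside 25.7% of 2411 measured genes lower and 14.1% higher.

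The other 4 members stayed within 1.5-fold. B2m stood at 3255 against 4160 CPM, a ratio of 0.7825 (0.6908 to 0.8831). H2-D1 stood at 1453.4 against 1653.6 CPM (0.8789, 0.727 to 1.054) and H2-T23 at 288.3 against 292.3 CPM (0.9862, 0.6269 to 1.481). Tapbp, at 504.5 against 442.8 CPM, was the 1 member above 1 (1.139, 0.8154 to 1.552). The classical heavy chains thus shifted in balance, with 0.614 H2-D1 UMIs per H2-K1 UMI (0.486 to 0.774) with Cd79a against 0.426 (0.409 to 0.444) without.

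Other antigen presentation genes stood on both sides of 1. All 4 measured class II genes, which present peptides to CD4 T cells, were higher, with H2-Eb1 at 57.12 (47.59 to 68.81) and the invariant chain Cd74 at 54.42 (46.58 to 63.74). Calr, the chaperone that joins the class I loading complex, stood at 1.772 (1.326 to 2.325), and 2 of 6 measured loading and folding genes were higher by 1.5-fold. Both measured other class I genes were lower, H2-T10 at 0.4293 (0.1565 to 0.9439) and H2-Q4 at 0.5708 (0.2445 to 1.137). Of 19 interferon-response genes 11 were lower and 1, Ly6a at 2.598 (1.947 to 3.408), higher. Ribosomal protein genes stood at 0.8909, and 0 of 6 immunoproteasome genes passed 1.5-fold.

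Cells with 1 Cd79a UMI and cells with more were alike in level to within their counting error. The sum was 8875 CPM (7926 to 9906) in the 32 cells with 1 and 8077 CPM (7288 to 8927) in the 46 with 2 or more. The 6 cells outside the B cell-like cluster held 8418 CPM from 54 class I UMIs, a ratio of 0.7252 (0.5446 to 0.9466) to cells without Cd79a, with pan-T markers at 4053 CPM and B cell markers other than Cd79a at 2805.9 CPM, from 2 of the 6 cells. Whether these are doublets, or T cells with free B cell RNA, was not tested. The 16 B cell-like cells without a Cd79a UMI had a median of 8.74 class I UMIs per 1000.

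Across the 10 clusters, the class I sum was lowest in the B cell-like cluster (8475 CPM, 88 cells) and highest in the activated Treg-like cluster (14956.4 CPM, 8.37% of cells). The resting Treg-like cluster (420 cells) was named because 5 of its 9 markers were higher by 1.5-fold than in all other cells. Its leading genes by fold held 1 of these markers, Igfbp4, and also Usp18 and Cmpk2, which interferon induces, while 8.1% of its cells held an Ifit1, Ifit3 or Isg15 UMI. It held 11808.5 CPM and the proliferating cluster (75 cells) 11136.2 CPM. The myeloid-like cluster held 12252.4 CPM. The other 5 clusters, left unnamed, ran from 10322.1 to 13081.8 CPM, and intervals of neighbours in the order overlapped except at its lowest (B cell-like) and highest (activated Treg-like) cluster.

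The myeloid-like cells, led by S100a8 and S100a9, differed in 1 member. The cluster was mixed: 30 of its 42 cells held a myeloid marker UMI and 20 a pan-T marker UMI. H2-D1 stood at 2694 against 1632 CPM in cells outside the B cell-like and myeloid-like clusters, a ratio of 1.651 (1.356 to 1.991). H2-K1 stood at 0.8551 (0.7183 to 1.011), so that there were 0.807 H2-D1 UMIs per H2-K1 UMI (0.624 to 1.04). In the 8 other clusters outside the B cell-like one this balance ran only from 0.401 to 0.454. Of the 8 members 1 was higher and 0 lower by 1.5-fold, beside 17.9% of 1133 genes higher and 28.9% lower, and the sum stood at 1.055 (0.9652 to 1.152).

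**Figure D3:**
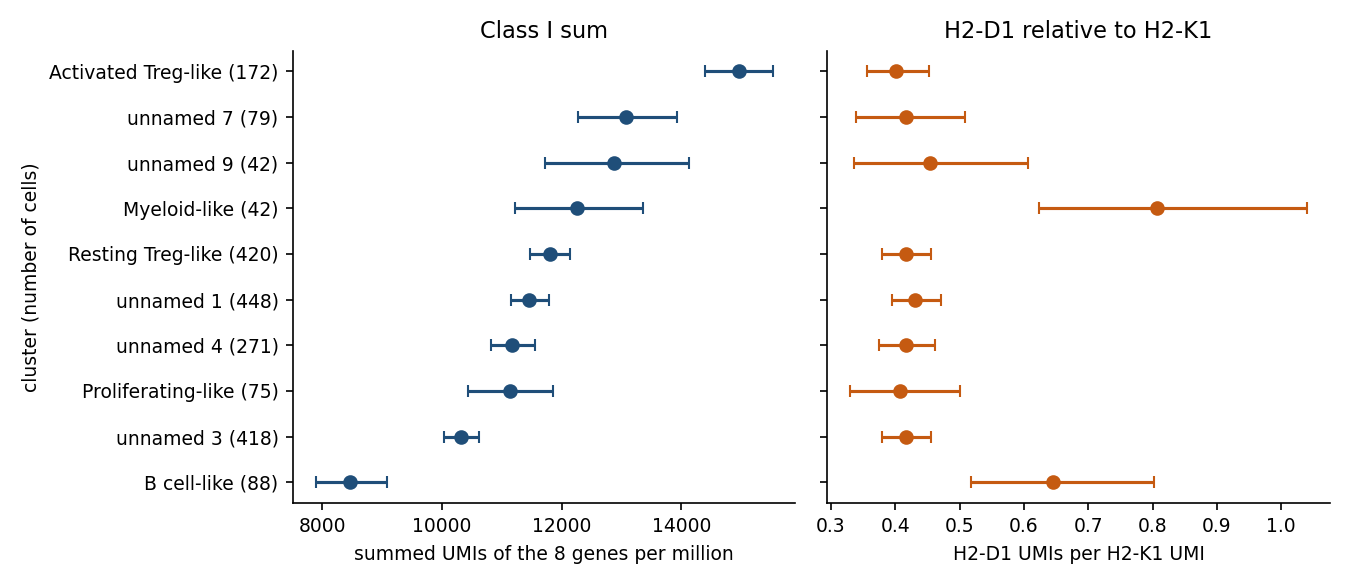
Class I sum in CPM with 95% Poisson intervals (left) and H2-D1 UMIs per H2-K1 UMI with exact 95% intervals (right) in each of the 10 clusters, with the number of cells in brackets. The activated Treg-like cluster holds the highest sum (14956.4 CPM) and the B cell-like cluster the lowest (8475 CPM), and the H2-D1 to H2-K1 balance is highest in the myeloid-like (0.807) and B cell-like (0.645) clusters.

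Activated Treg-like cells were set against the cluster named resting Treg-like, which leaves out the unnamed cluster of 418 cells described above. The leading genes of the activated cluster by fold were S100a4, Klrg1 and S100a6, with Maf and Icos further down. Klrg1, Maf and Icos are also in the marker list that named the cluster. The sum stood at a ratio of 1.267 (1.208 to 1.328), and all 8 members lay above 1, with a median log2 ratio of 0.3 against 0.14 over all measured genes and -0.17 over those with at least 300 UMIs. Tapbp was the 1 of 8 members past 1.5-fold, at 599.3 against 396.1 CPM (1.513, 1.176 to 1.941), beside 18.5% of 1785 genes higher and 9.13% lower. H2-Q7 stood at 1.409 (1.176 to 1.686), H2-K1 at 1.304 (1.203 to 1.414), H2-D1 at 1.256 (1.105 to 1.426) and B2m at 1.202 (1.11 to 1.302). Tap1, Tap2 and H2-T23 had intervals that span 1.

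Markers of other cells stood higher in the activated cluster. Myeloid markers held 681.1 CPM there, in 40.7% of cells with up to 32 UMIs in a cell, against 311.9 CPM in 25% of resting cells with at most 3 in a cell. Of the 10 myeloid markers 8 were seen in activated cells and 3 in resting ones, where S100a8, Lyz2 and Tyrobp were among those at 0. B cell markers held 98.08 against 24.76 CPM, with 6 of 11 seen in each and Ms4a1, Ebf1 and Pax5 at 0 in both. The part of these cells in the class I ratios was not tested.

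Genes that work with the members also stood above 1. Canx, a chaperone of new heavy chains, stood at 2.088 (1.295 to 3.361), and 3 of 6 loading and folding genes passed 1.5-fold. So did 3 of 5 immunoproteasome genes, with Psmb10 at 1.651 (1.061 to 2.549) and the proteasome activator Psme1 at 1.572 (1.22 to 2.021). Neither H2-Q4 nor H2-T10 was above 1. Of 15 interferon-response genes 3 were higher, led by Ly6a at 2.921 (2.257 to 3.79), and 1 was lower. Among all 1785 measured genes, 18.5% were higher and 9.13% lower by 1.5-fold. All counts in this paragraph use totals that include ribosomal protein UMIs. The shift given below lowers every ratio here, and these lists were not counted again after it.

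The activated cells held fewer ribosomal protein UMIs, 268229.7 against 356073.1 CPM, a ratio of 0.7533 (0.7456 to 0.7611). When the total was taken without ribosomal protein UMIs, which moves every log2 ratio by -0.18, the class I ratio was 1.115 (1.063 to 1.168), with all 8 members still above 1 and B2m at 1.058 (0.9766 to 1.146). On that scale 0 of 8 members passed 1.5-fold, beside 10.6% of 1785 genes higher and 16.1% lower, and Tapbp stood at 1.332 (1.035 to 1.708). Other cluster settings gave ratios of 1.149 and 1.372. Against all other cells outside the B cell-like and myeloid-like clusters (chosen after seeing the data), the sum stood at 1.327 (1.274 to 1.381), and 0 of 8 members passed 1.5-fold, beside 21.4% of 4704 genes higher and 11.0% lower.

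**Figure D4:**
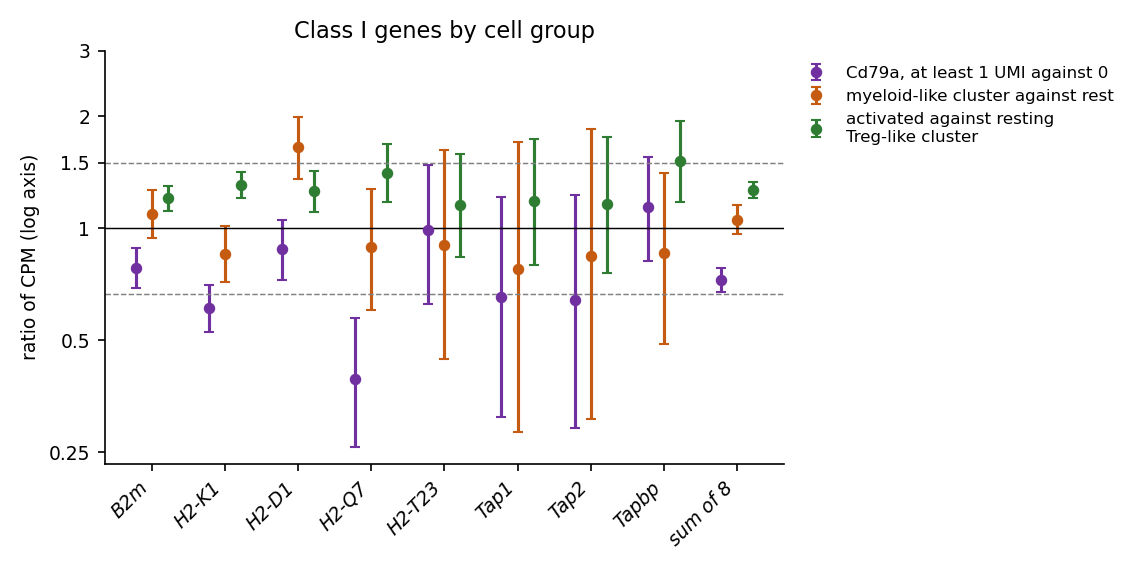
Ratio of CPM of each class I gene and of their sum, on a log axis, for cells with a Cd79a UMI against cells with none, the myeloid-like cluster against cells outside it and the B cell-like cluster, and the activated against the resting Treg-like cluster. Bars are exact 95% counting intervals, and dashed lines mark 1.5-fold in each direction. H2-Q7 at 0.3927 and H2-K1 at 0.6099 lie lowest with Cd79a, H2-D1 at 1.651 stands apart in myeloid-like cells, and Tapbp at 1.513 is above the line in activated cells.

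Co-variation was described from Pearson residuals, which scale each count to the depth of its cell. The residual sum still correlated with total UMIs at -0.2017, as given above. Over the 28 pairs of members the mean r was 0.06 (all kept cells, which share library, depth and the scaling), with a range from -0.01 to 0.21. Over 1171215 pairs of genes with at least 200 UMIs the mean was 0.0005761. Since r is limited by low counts, the 6 pairs among B2m, H2-K1, H2-D1 and H2-Q7 were set beside 3081 pairs of non-ribosomal genes with at least 1500 UMIs: their means were 0.1424 and 0.002169. With ribosomal protein genes included, 12561 pairs had a mean of 0.02687 and a highest of 0.6944.

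The strongest pair was B2m with H2-K1 (r = 0.2118), the light chain with its most abundant heavy chain, which 0.0363% of all pairs reached. H2-K1 correlated with H2-D1 at 0.1597 and with H2-Q7 at 0.1594, and B2m with H2-Q7 at 0.1512. B2m with H2-D1 was weaker at 0.08444. Tapbp correlated at 0.08511 with H2-K1, at 0.0842 with H2-Q7 and at 0.07487 with B2m. Tap1 correlated with H2-K1 at 0.0669 and Tap2 with H2-T23 at 0.05144, while H2-T23 with H2-K1 stood at 0.01448. Tap1 with Tap2 was near 0 (0.006117), and with 391 and 359 UMIs over all cells a weak value there is no finding.

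**Figure D5:**
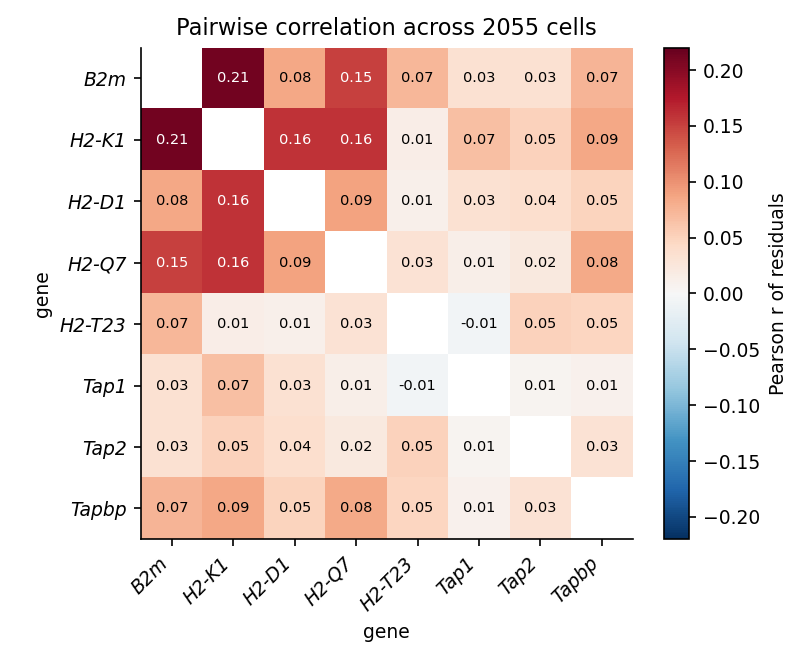
Pearson r of residuals for each pair of the 8 class I genes across the cells with at least 500 UMIs; rows and columns are genes, and colour runs from blue (negative) to red (positive). The block of B2m, H2-K1, H2-D1 and H2-Q7 holds the 5 highest values, up to 0.21 for B2m with H2-K1, and Tap1 with Tap2 (0.006117) and Tap1 with H2-T23 (-0.005673) are the lowest.

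Of the 10 genes outside the 8 whose residuals were most like the class I sum, among those with at least 200 UMIs, 9 were AW112010 (r = 0.187), Ikzf2 (0.1788), Ly6e (0.1647), Shisa5 (0.1496), Gbp7 (0.1471), Gbp6 (0.1458), Ifi27l2a (0.1397), Rnaset2b (0.1326) and Icos (0.1324). Ikzf2 encodes Helios, a Treg transcription factor, Icos is a costimulatory receptor of activated T cells, and Gbp6, Gbp7 and Ifi27l2a are interferon-induced. Without the B cell-like and myeloid-like clusters the r of these 9 ran from 0.1232 to 0.1828. The lowest were ribosomal protein genes and Eef1a1, from Rps2 at -0.2257.

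By member, B2m, H2-K1 and H2-Q7 had each other among their 3 nearest genes. Tapbp was nearest to Ifi27l2a (0.118), and Tap1 to Tgtp2 (0.07892), while Irf1 (0.07862) was among the 3 nearest to Tap2. H2-D1 was nearest to H2-K1, then to the myeloid gene S100a8 (0.1043) and to Ly6a (0.1005). H2-T23 was nearest to Fbxo32 (0.1787): 110 cells held a UMI of both against 68.2 expected. Samhd1 came next (0.1111), and Rab33b was the third in this order (0.1102). Rab33b shares 78 stretches of 50 bases with the end of the H2-T23 transcript, Fbxo32 shares 6 and Samhd1 shares 0. Reads of Rab33b and Fbxo32 could thus be split between rows, and their values are uncertain.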

How the data were processed

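The authors deposited 1 table of UMI counts per gene and cell, whole numbers with no normalization. Per the submitters' processing notes, TopHat2, SAMtools and the mm10 build were used; their versions, settings and counting annotation are not given in the sources used here. Cells with at least 500 UMIs were kept. Levels are pooled counts per 1000000 UMIs (CPM) with exact Poisson 95% intervals, shares have exact binomial (Clopper-Pearson) intervals, and ratios exact conditional intervals. A gene was measured in a comparison with at least 50 UMIs over both groups and 5 expected in the smaller. Higher or lower means past 1.5-fold, since 1 library allows no test.

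Co-variation used Pearson residuals (overdispersion 100). Clusters came from 1000 variable genes (15 components, 20 neighbors, Leiden resolution 0.8, leidenalg 0.10.2, Python 3.11.15, SciPy 1.17.1) and were named from marker lists. The listed interferon and antigen presentation genes and the ribosomal protein genes were left out beforehand. Exceptions were the class II genes Cd74, H2-Aa, H2-Ab1 and H2-Eb1, which are B cell markers. Interferon-induced genes outside the list, such as Cmpk2 and Gbp6, were not left out beforehand. A name also needed a marker UMI in 25% of cells, a limit set after the data were seen; without it a cluster of 271 cells would be named for natural killer cells, whose markers 8.49% of its cells held. Class B cell markers include class II genes. Doublets were neither called nor removed, and p-values were not computed. Lengths came from GENCODE vM21 and promoters from RefSeq GRCm38.p6. The interferon and NF-kB motif letters were shortened to the printed cores after a first search with longer forms, in which H2-Q7 held no NF-kB match. The ratio and residual steps were tested on simulated data.

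The members and lists were chosen with earlier results of these data known. Named genes are the 8 members, up to 4 genes of each list with the largest ratio in size, the 10 genes most correlated with the class I sum, the 3 nearest genes of each member, and reference genes; a few of them are not reported here. Alternatives changed the UMI minimum, the scaling, the depth, the grouping, the clusters and the gene minimum.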

Additional observations from a re-analysis of the deposited data

Results flagged for a closer look

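The cells with fewer than 500 UMIs (8.218% of the table), which no comparison above used, held the 8 class I genes at 11190.8 CPM (95% Poisson interval 10424.4 to 11998.6) from 791 UMIs. This was flagged as a signal outside the cells analysed, well above what a count of 0 allows. The interval includes the 11484.1 CPM of the cells kept. Just under the limit, 96 cells with 400 to 499 UMIs held 11468.7 CPM, and just over it cells with 500 to 599 UMIs held 12451.3 CPM.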

How the results depend on the processing

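No paired analysis was possible because all cells come from 1 library and share the same rep2 in their titles. Of 53 alternative values of the main results, 40 lay within the limit set for their kind. The limit was the 95% counting interval for a reported level or ratio, and 1.5 times for shares of genes. For the mean correlation it was a 95% interval over cells, that of 1 correlation and not of a mean over 28 pairs. It treats the cells of 1 library as independent, so it is a yardstick only. The class I level became 10741.0 CPM at a minimum of 1000 UMIs, 17935.4 CPM without ribosomal UMIs in the total and 11825.5 CPM as a mean over cells. The ratio by interferon UMIs, 1.105, stayed above 1 in all its alternatives and became 1.227 at 2 or more UMIs, 1.23 there without the highest cell, and 1.203 by Ifit3 alone. The ratio by Cd79a, 0.7254, stayed below 1 and became 0.5635 against the activated Treg-like cluster. The activated to resting ratio, 1.267, became 1.149 at resolution 0.5, 1.372 at resolution 1.2 and 1.115 without ribosomal UMIs. Mean co-variation, 0.06094, became 0.1595 by Spearman and 0.03728 in cells thinned to 500 UMIs. In the Spearman value, cells without a UMI of a gene are ranked by their total UMIs alone, in the same order for every member. That value thus holds shared depth and cannot be read as stronger co-variation. At a gene minimum of 100 UMIs, the background by interferon UMIs was 4.44% higher and 6.84% lower. The cause of these moves was not tested where the alternative does not itself name it. Among members, Tap1 with Cd79a turned from 0.6536 to 1.027 at a minimum of 1000 UMIs. H2-Q7 stayed lower by 1.5-fold with Cd79a in all 10 alternatives and H2-K1 in 8 of 10. By interferon UMIs, H2-D1 was above 1 in 8 of 13, and H2-Q7 and Tap2 in 12 of 13, with 0.8139 and 0.9921 by Ifit1 alone. Tapbp with Cd79a was above 1 in 8 of 10. Tap1, Tap2, H2-T23 and Tapbp are limited by depth, with fewer than 1 UMI in the median cell.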
